A study of Mus musculus with 6 samples.

Results

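The core circadian clock loop was examined in injured mouse femoral arteries, as 10 genes taken by symbol from the 18476 genes of the deposited table: Arntl, Clock, Npas2, Per1, Per2, Per3, Cry1, Cry2, Nr1d1 and Nr1d2. All 10 had an entry, and all 10 were among the 14557 genes that passed the low-count filter. The members are the textbook core of the loop, and the set was selected on their counts and TPM values in the same 6 libraries, with the vasostatin-2 against saline contrast already known. The members' differences between the groups are therefore given below as a description; where calls over all genes are counted, the members among them are only listed and serve as no evidence. The arteries came from wild-type C57BL/6 mice, were taken 3 days after injury with a wire, and had been treated from outside the vessel with saline or with vasostatin-2, a fragment of chromogranin A. There were 3 libraries per group, described as biological replicates. Every artery had been injured, and uninjured vessels were not analysed here. No batch term was fitted. The labels used here give neither the animals' age or sex nor the clock time at which tissue was taken.

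The circadian clock is a transcriptional feedback loop present in nearly every mammalian cell, vascular smooth muscle, endothelium and macrophages included. ARNTL (also called BMAL1) pairs with CLOCK or its relative NPAS2 and switches on genes that carry E-boxes, among them the Per, Cry and Nr1d genes. PER and CRY proteins return to the nucleus and silence that pair, while NR1D1 and NR1D2 (REV-ERB alpha and beta) repress Arntl, Npas2 and Cry1 through RORE sites, where ROR proteins activate. In a running clock Arntl and Npas2 transcripts therefore peak at another time of day than those of the Nr1d genes, all of the Per genes and the output factor Dbp.

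Short motifs through which the loop is wired were searched in the promoters of the members, to show the letters beside the genes whose levels are described below. Sequences are those of RefSeq on GRCm38.p6, the build the submitters name, and 9 of the 10 members were matched, all but Per2. The window was the 250 bases before each annotated start. The E-box was searched as CACGTG, the E-prime box as CACGTT, the RORE core as AGGTCA, the D-box as TTACGTAA or TTATGTAA and the cAMP response element as TGACGTCA. Matches on both strands were counted, and 0 matches of different motifs overlapped. The windows of the members whose groups were apart and that held a match, together with that of Per1, read as follows from 5′ to 3′ on the strand of the gene, with the motif letters in capitals.
Per3 (chr4:151044666-151044915, minus strand): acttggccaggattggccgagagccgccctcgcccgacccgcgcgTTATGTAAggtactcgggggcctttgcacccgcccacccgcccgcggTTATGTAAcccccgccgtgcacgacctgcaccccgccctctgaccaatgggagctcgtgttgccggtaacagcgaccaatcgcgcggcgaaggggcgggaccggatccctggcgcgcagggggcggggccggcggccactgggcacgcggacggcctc
Nr1d1 (chr11:98775378-98775627, minus strand): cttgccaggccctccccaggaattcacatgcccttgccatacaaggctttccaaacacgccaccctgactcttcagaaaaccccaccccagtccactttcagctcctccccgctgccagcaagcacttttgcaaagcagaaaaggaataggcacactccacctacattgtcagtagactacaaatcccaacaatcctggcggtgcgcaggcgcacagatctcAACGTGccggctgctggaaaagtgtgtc
Nr1d2 (chr14:18239107-18239356, minus strand): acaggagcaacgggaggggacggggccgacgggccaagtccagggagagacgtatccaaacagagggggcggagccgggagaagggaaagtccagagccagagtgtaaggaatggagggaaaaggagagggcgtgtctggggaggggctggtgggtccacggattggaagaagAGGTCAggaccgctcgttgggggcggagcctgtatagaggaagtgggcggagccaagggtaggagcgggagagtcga
Cry1 (chr10:85185055-85185304, minus strand): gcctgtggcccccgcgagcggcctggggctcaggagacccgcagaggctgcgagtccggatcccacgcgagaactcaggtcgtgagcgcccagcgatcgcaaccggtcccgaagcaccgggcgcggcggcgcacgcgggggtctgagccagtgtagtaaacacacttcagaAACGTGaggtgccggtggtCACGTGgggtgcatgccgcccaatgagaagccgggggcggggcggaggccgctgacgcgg
Per1 (chr11:69098699-69098948, plus strand): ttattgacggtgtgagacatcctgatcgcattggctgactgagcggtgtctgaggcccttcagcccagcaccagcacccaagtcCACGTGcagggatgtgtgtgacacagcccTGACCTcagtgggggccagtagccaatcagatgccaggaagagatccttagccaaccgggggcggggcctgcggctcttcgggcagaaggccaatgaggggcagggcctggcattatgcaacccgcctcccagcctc

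Per3 held a pair of D-boxes, TTATGTAA, that begin 205 and 158 bases before its start. Of the 32851 promoter windows in the RefSeq table, 0.931% held a D-box by these letters, and no other matched member did. Nr1d1 held an E-prime box 28 bases before its start and Cry2 held one at 166 bases, a motif found in 3.85% of all windows. Cry1 held both an E-prime box at 79 bases and an E-box at 60 bases, and Per1 held an E-box at 166 bases before the first of its 2 annotated starts. An E-box was present in 6.02% of all windows. The RORE core, a half-site found in 14% of windows, lay 77 bases before the start of Nr1d2, 137 bases before the first start of Per1 and 119 bases before the third start of Clock. The windows of Npas2 and Arntl held none of these letters, and after the second start of Arntl a RORE core followed at 31 bases. No matched member held the cAMP response element, Per1 included, where 1.55% of all windows did. A match is a description of letters and says nothing of occupancy, and a window so short leaves out many regulatory sites.

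**Figure D1:**
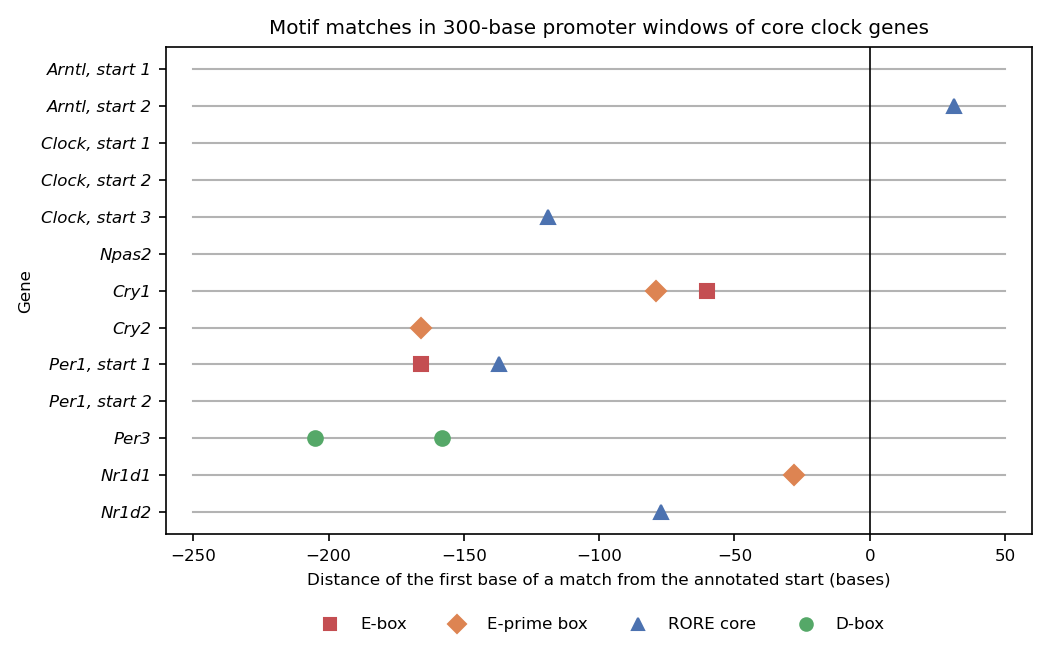
Motif matches in the promoter windows of the 9 core clock genes with a RefSeq entry, 1 row per annotated start; the x axis is the distance in bases of the first base of a match from that start (vertical line), and symbols mark the kind of motif. Per3 alone has D-boxes, at 205 and 158 bases before its start, and Cry1 has an E-prime box and an E-box at 79 and 60 bases.

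The 6 libraries had between 19333730 and 20105995 estimated counts, and a count of 3 was worth 0.149 to 0.155 CPM, a unit of counts relative to library size. The cell type in the labels is the vascular smooth muscle cell, whereas the protocol describes RNA of the whole vessel. Summed smooth muscle markers (6 of 6 detected in every library) were at 885 to 1767 CPM with saline and 888 to 2173 CPM with vasostatin-2. Macrophage markers (6 of 6) were at 3424 to 4241 and 4005 to 4546 CPM, and fibroblast markers (5 of 5) at 11332 to 20216 and 12558 to 16128 CPM. Red cell markers (6 of 6) reached 12348 CPM in saline replicate 2, against 1836 and 2499 CPM in replicates 1 and 3 and 310 to 2358 CPM with vasostatin-2. Neutrophil markers (5 of 6 in every library; Ly6g was at 0 in at least 1) were at 264 to 447 and 158 to 299 CPM, and T cell markers (5 of 5) at 13.8 to 41.6 and 13.3 to 18.1 CPM. Schwann cell markers (6 of 6) stood at 584 CPM in saline replicate 3 and at 53.6 to 88.8 CPM elsewhere, and skeletal muscle markers (8 of 8) at 945 CPM in vasostatin-2 replicate 3 and at 53.4 to 93.1 CPM elsewhere. Endothelial (5 of 5) and adipocyte (5 of 5) markers were at 1434 to 1772 and 2066 to 4718 CPM over all libraries. The part of these differences in composition in the clock values was not tested, and in whole-vessel RNA fewer cells of a type cannot be told apart from less RNA per cell. Values without saline replicate 2 and without both replicates 3 are given with the members below.

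Transcripts of the 10 genes were all measured well above the counting floor, at levels spanning less than an order of magnitude. On the deposited TPM scale, which divides by transcript length, Per1 (29.8 ± 13.9 TPM), Nr1d1 (28.2 ± 6.64 TPM) and Arntl (26.9 ± 7.35 TPM; SD, n = 3) were the most abundant with saline. These 3 overlapped each other, and each was above Nr1d2 on average, but only Arntl and Nr1d1 were so in every saline library. Below Nr1d2 (16.8 ± 1.11 TPM) came Cry2 (11.7 ± 1.45), Clock (10.3 ± 1.25), Cry1 (9.54 ± 1.44), Npas2 (8.82 ± 2.43), Per2 (7.06 ± 2.94) and Per3 (5.63 ± 0.679 TPM), where every gene overlapped the next in the order. With vasostatin-2, Nr1d1 stood first at 43.3 ± 2.39 TPM and its lowest library, at 40.55 TPM, was above the highest Per1 library, at 25.48 TPM. Per1 (21.4 ± 4.84 TPM), Nr1d2 (21.1 ± 1.45 TPM) and Arntl (19.2 ± 1.63 TPM) followed, each overlapping the next. Npas2 was last at 4.94 ± 0.0551 TPM, while Per3, last with saline, was seventh at 9.14 ± 0.921 TPM. The order of genes depends on their annotated models. Those of Nr1d1, Per3 and Arntl differ between sources, as given below, and those of other members differ to some extent.

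The activators came out lower on average with vasostatin-2, most clearly Npas2. Npas2, the partner of ARNTL that can stand in for CLOCK, was at 21.8, 13.8 and 15.9 CPM in saline replicates 1, 2 and 3 and at 9.60, 9.81 and 9.80 CPM in the vasostatin-2 replicates. All 3 vasostatin-2 libraries lay below every saline library, with a log2 fold change of −0.82 (SE 0.17). Their estimated counts were 188 to 196, an SD of 4 counts where counting error alone gives about 13.9 on average. Arntl, the obligate partner in both pairs, was at 41.6, 25.7 and 36.8 CPM with saline and at 25.0, 22.4 and 27.0 CPM with vasostatin-2. The groups overlapped because saline replicate 2 sat among the vasostatin-2 libraries, and the log2 fold change of −0.48 (SE 0.18) was −0.66 without that library and −0.33 without saline replicate 1. Clock, which encodes the usual partner, was nearly level, at 49.0, 44.8 and 52.7 CPM against 46.9, 44.5 and 40.7 CPM (log2 fold change −0.15, SE 0.09). With both replicates 3 left out, the libraries high in Schwann cell or skeletal muscle markers, the value for Clock was −0.04 while those for Npas2 and Arntl were −0.87 and −0.50. Without saline replicate 2 the values for Npas2 and Clock were −0.95 and −0.21.

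The REV-ERB repressors were at higher levels in every vasostatin-2 library than in any saline library. Nr1d1 was at 45.0, 30.1 and 37.6 CPM in the saline replicates and at 59.6, 60.7 and 54.6 CPM with vasostatin-2. No saline library reached the lowest vasostatin-2 library, and the log2 fold change was 0.63 (SE 0.14), or 1.55-fold higher. Nr1d2 was at 35.6, 38.4 and 39.9 CPM against 51.5, 47.8 and 44.9 CPM, a log2 fold change of 0.34 (SE 0.08), again with the groups apart. Leaving out each library in turn gave 0.50 to 0.78 for Nr1d1 and 0.29 to 0.39 for Nr1d2. Without saline replicate 2, the library high in red cell markers, the values were 0.50 for Nr1d1 and 0.35 for Nr1d2, and without both replicates 3 they were 0.68 and 0.43.

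The position of Nr1d1 in the genome limits how its counts can be read. On GRCm38.p6 the deposited table places Nr1d1 on chromosome 11 from 98767932 to 98782952 on the plus strand, whereas GENCODE M21, an annotation of GRCm38, ends the gene at 98775333 and puts it on the minus strand. The neighbour Thra, the thyroid hormone receptor alpha gene, runs on the plus strand from 98740776 to 98773402 in the deposited table, an overlap of 5471 bases with Nr1d1; in GENCODE M21 the tail-to-tail overlap is 1075 bases. The sources used here do not give the strandedness of the counting, so reads in the overlap could not be assigned. Thra was at 119, 104 and 123 CPM with saline and at 122, 138 and 124 CPM with vasostatin-2 (log2 fold change 0.15, SE 0.09; groups overlap). The log2 ratio of Nr1d1 to Thra counts was −1.40, −1.79 and −1.71 in the saline replicates and −1.03, −1.19 and −1.18 with vasostatin-2. The groups were apart on this ratio as well. Either count may hold reads of the overlap, so the ratio cannot show to which gene such reads belong. The part of the overlap in the Nr1d1 difference was not tested. Nr1d2, on chromosome 14 from 18204056 to 18239106, had whole counts throughout and overlapped no other gene of the table.

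Among the repressors of the Per and Cry families the members differed from one another. Per3, a period gene that the core oscillation can run without, was at 13.9, 18.8 and 16.7 CPM with saline and at 25.5, 29.9 and 24.7 CPM with vasostatin-2. The groups were apart, with a log2 fold change of 0.70 (SE 0.13), or 1.62-fold higher, and the value ran from 0.59 without saline replicate 1 to 0.80 without saline replicate 2, with 0.76 without both replicates 3. In the deposited coordinates Per3 spans chromosome 4 from 150997018 to 151044706 and covers Uts2, the urotensin 2 gene, over 4714 bases. Uts2 had at most 1.6 estimated counts in any library. Like Nr1d1, Per3 is given there on the plus strand and in GENCODE M21 on the minus strand. The deposited strand differed from the RefSeq one in 13.7% of the 14580 genes that could be compared.

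Per1, the period gene that also answers acutely to cAMP and glucocorticoid signals, had the widest spread. It was at 85.6, 33.5 and 82.9 CPM with saline and at 37.0, 52.3 and 58.8 CPM with vasostatin-2. Saline replicate 2 was the lowest of all 6 libraries and the other saline libraries were the highest, so that the log2 fold change of −0.45 (SE 0.36) was −0.77 without saline replicate 2, −0.24 without saline replicate 1 and −0.42 without both replicates 3. Per2, a core repressor, was at 13.0, 17.2 and 28.2 CPM against 18.4, 22.1 and 17.7 CPM. The group means were both 19.4 CPM (log2 fold change −0.005, SE 0.27), the value turned to 0.36 without saline replicate 3, and it was −0.22 without saline replicate 1. It was −0.09 without saline replicate 2 and 0.42 without both replicates 3.

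The cryptochromes, which carry most of the repression of ARNTL and its partners, were split as well. Cry1, the one repressed by REV-ERB proteins, was at 12.0, 17.3 and 12.9 CPM with saline and at 11.4, 8.96 and 11.8 CPM with vasostatin-2. The groups were apart by a narrow margin, 12.0 against 11.8 CPM, with a log2 fold change of −0.39 (SE 0.18) that was −0.22 without saline replicate 2 and −0.52 without both replicates 3. Cry2 was level, at 24.9, 23.2 and 19.8 CPM against 24.1, 24.9 and 22.0 CPM (log2 fold change 0.06, SE 0.11), and the sign of its value turned without saline replicate 3 (−0.02). Without saline replicate 2 it was 0.08, and without both replicates 3 it was 0.03.

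**Figure D2:**
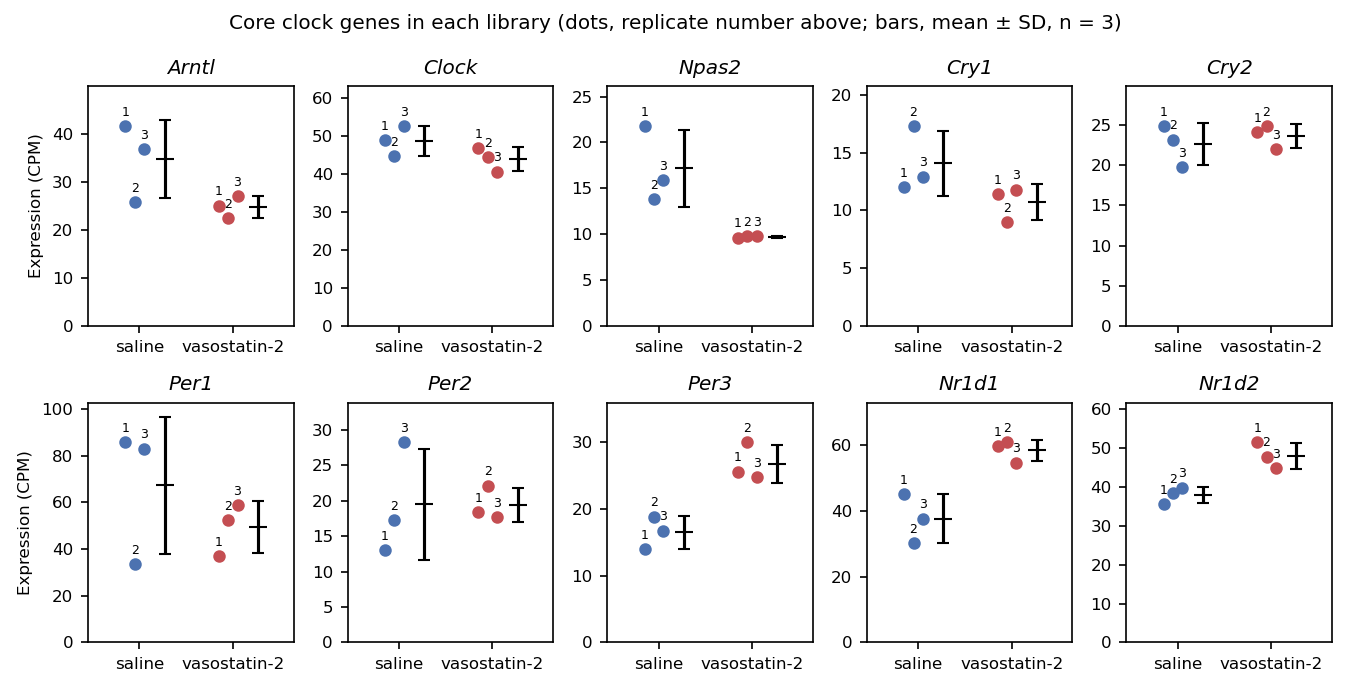
Expression of the 10 core clock genes in CPM in each library (dots, with the replicate number above), with the mean and SD of each group (bars, n = 3); each panel has its own y axis starting at 0. Npas2 is at 9.60 to 9.81 CPM in the vasostatin-2 libraries and at 13.8 to 21.8 CPM with saline, while Nr1d1 is at 54.6 to 60.7 CPM and 30.1 to 45.0 CPM.

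Over the set, the median of the 10 log2 fold changes was −0.078, because values in both directions were present, and the median size regardless of sign was 0.42. Over all 14557 genes tested the median was −0.001 and the median size 0.10. Groups did not overlap in 5 of the 10 members, 3 higher and 2 lower with vasostatin-2, where 12.8% of all genes tested had groups apart, 6.07% higher and 6.72% lower. With p-values adjusted by Benjamini-Hochberg over all genes, the quasi-likelihood test of edgeR made 0 calls among the 14557 genes at 0.05 (0%), and so none among the members. At an unadjusted p under 0.05 it gave 5 of the 10 members and 7.14% of all genes: Per3, Nr1d1 and Nr1d2 on the higher side, which held 3.29% of all genes, and Npas2 and Arntl on the lower side, which held 3.85%. DESeq2 called 3 members (Npas2, Per3 and Nr1d1) and 0.809% of the genes given an adjusted p, and limma-voom called 0 members and 0% of genes. In the authors' deposited table the q-value was below 0.05 for the same 3 genes, as it was for 0.533% of the 18401 genes with a q-value. As the members were chosen with this contrast known, these counts describe the set and support nothing about it.

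**Figure D3:**
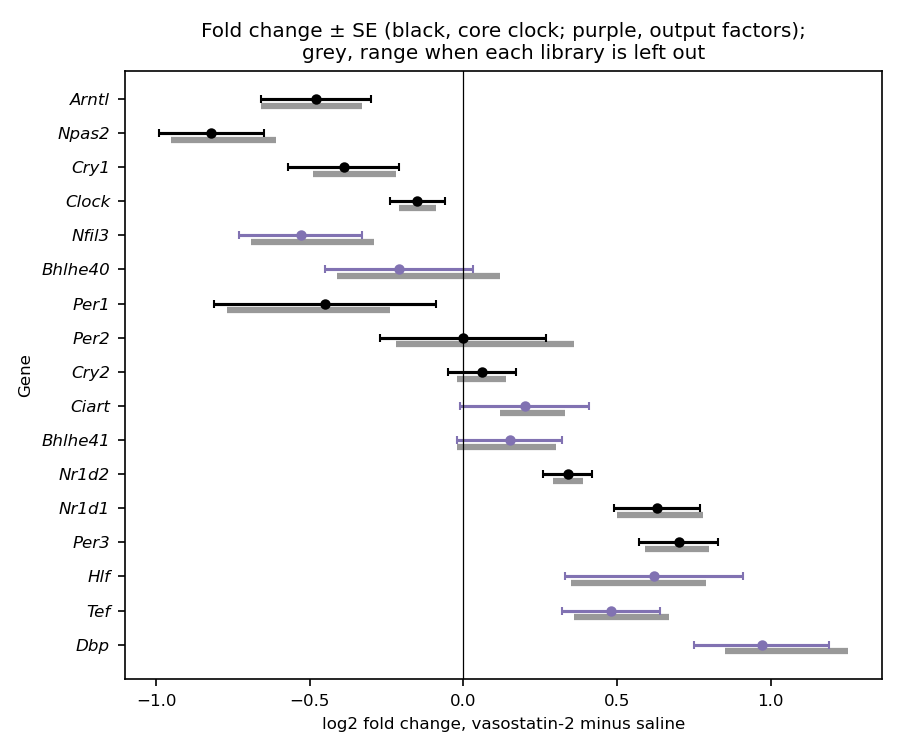
Log2 fold changes, vasostatin-2 minus saline, with a standard error derived from edgeR's test (points and bars, black for core clock genes and purple for output factors). In grey is the range when each library is left out. Npas2 lies at −0.82 and Dbp at 0.97; the grey ranges of Per2, Cry2, Bhlhe40 and Bhlhe41 cross 0.

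The members also varied among the libraries of 1 group, and more so with saline. The SD of log2 CPM was larger with saline than with vasostatin-2 in 9 of the 10 members, Nr1d2 being the exception, with medians of 0.28 and 0.12. Over all genes tested it was larger with saline in 65.9%, with medians of 0.16 and 0.11. Per1 (0.77 against 0.35), Per2 (0.56 against 0.17) and Arntl (0.36 against 0.14) had the largest SDs with saline. The range of a member over all 6 libraries was a median of 0.97 on the log2 scale, against 0.42 for all genes tested. This range includes the group difference known when the members were chosen, so it is no separate result.

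Likeness was read from the root-mean-square difference between gene profiles, each centred on its own mean log2 CPM over the 6 libraries. The member nearest to Arntl was Npas2, at 0.207, where the profile of Arntl itself has a root-mean-square size of 0.319. Turned upside down, the profile of Per3 matched Npas2 most closely of all members, at 0.121 against a size of 0.437 for Npas2. In the same mirrored sense the nearest member to Arntl was Per3 (0.161), and the nearest to Nr1d1 was Cry1 (0.172). Part of each of these distances is the group difference for which the set was proposed, and 6 libraries are few.

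Arntl and Nr1d1, the activator and the repressor that acts on it, were compared on the TPM scale. Arntl was at 32.76, 18.65 and 29.30 TPM in the saline replicates, and Nr1d1 at 34.54, 21.29 and 28.72 TPM. Both were lowest of the saline libraries in replicate 2, so that the log2 difference, Arntl minus Nr1d1 with a pseudocount of 0.1, stayed near 0 in each: −0.08, −0.19 and 0.03. With vasostatin-2 Arntl was at 19.67, 17.37 and 20.52 TPM and Nr1d1 at 44.23, 45.04 and 40.55 TPM, giving differences of −1.16, −1.37 and −0.98. Nr1d1 was thus 0.98 to 1.14 times Arntl in the saline libraries and 1.98 to 2.59 times Arntl in the vasostatin-2 libraries. These ratios depend on the annotated gene models, and the limit given above for the counts of Nr1d1 applies to them. The model of Arntl differs between sources too. On chromosome 7 it starts at 113178471 in the deposited coordinates and at 113207465 in GENCODE M21, and its estimated counts were not whole in every library. The part of these differences in the ratios was not tested. The group means of the log2 difference were −0.08 ± 0.11 and −1.17 ± 0.20 (SD, n = 3), which are 1.09 apart (vasostatin-2 minus saline, −1.09), and the distance lay between −1.19 and −0.99 when any 1 library was left out. Saline replicate 2, whose Arntl level alone fell among the vasostatin-2 libraries, was with the other saline libraries on this ratio. The ratio joins the group differences of both genes, which were chosen with this contrast known. It describes those differences and is no further evidence of them.

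**Figure D4:**
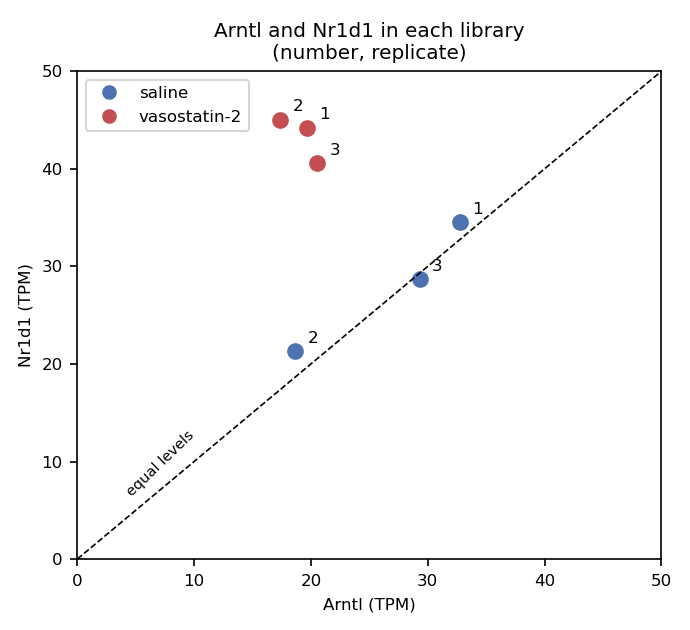
Arntl (x axis) and Nr1d1 (y axis) in TPM in each library, numbered by replicate, with a dashed line of equal levels. The 3 saline libraries lie along the line, from 18.65 and 21.29 to 32.76 and 34.54 TPM, and the 3 vasostatin-2 libraries lie above it at 40.55 to 45.04 TPM of Nr1d1.

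By the same measure of likeness, over 11769 genes outside the set with a mean of at least 5 CPM, the genes nearest to Nr1d1 were Fdft1 (0.067), Tlcd2 (0.091) and Pard6g (0.098), against a median distance of 0.39. Fdft1 encodes squalene synthase, an enzyme of sterol synthesis, and was at 42.7, 28.9 and 31.8 CPM with saline and 54.8, 52.3 and 50.3 CPM with vasostatin-2. Pard6g, a cell polarity gene, was at 18.8, 11.9 and 16.6 against 22.2, 27.5 and 23.7 CPM. Nearest to Arntl were Gm15448 (0.083), Mex3b (0.086) and Cd80 (0.088), against a median distance of 0.34. Cd80, a costimulatory ligand of antigen-presenting cells, was at 12.5, 8.89 and 13.1 CPM with saline and 7.66, 7.11 and 8.73 CPM with vasostatin-2. Mex3b, an RNA-binding protein gene, was at 16.9, 11.7 and 15.4 against 11.4, 10.2 and 13.1 CPM. In all 3 genes of each anchor the lowest saline library was replicate 2, as in Nr1d1 and Arntl themselves. Genes picked for likeness to an anchor share such features by selection, so this is no separate result.

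The transcription factors that the loop drives were read from a list of 7. Dbp, a PAR bZIP activator and a direct E-box target that binds D-boxes, was at 9.04, 15.0 and 9.17 CPM with saline and at 19.3, 24.3 and 21.5 CPM with vasostatin-2 (log2 fold change 0.97, SE 0.22). Its relatives Tef (61.7 ± 13.7 against 86.0 ± 7.36 CPM; SD, n = 3) and Hlf (3.26 ± 1.16 against 5.03 ± 0.699 CPM) had log2 fold changes of 0.48 and 0.62. All 3 PAR bZIP genes had every vasostatin-2 library above every saline library, as had 6.07% of all genes tested, Tef by 77.8 against 77.1 CPM only, and the value of Hlf was 0.35 without saline replicate 1. Nfil3, a repressor that competes for the same D-boxes, was at 53.0, 30.9 and 38.1 CPM against 25.2, 27.6 and 31.7 CPM (log2 fold change −0.53, SE 0.20; −0.29 without saline replicate 1), with the groups overlapping. Bhlhe40, an E-box repressor also called Dec1, had a log2 fold change of −0.21, which was 0.12 without saline replicate 1, and Bhlhe41 (Dec2) and Ciart (Chrono), likewise repressors of E-box activity, had values of 0.15 and 0.20. The value of Bhlhe41 was −0.02 without saline replicate 3 and that of Ciart 0.33 without the same library. Of the 7 genes edgeR called 0 at an adjusted p of 0.05 (adjusted p = 0.476 for Dbp, the lowest), 3 had an unadjusted p under 0.05 (Dbp and Tef higher, Nfil3 lower) where 7.14% of all genes had one, DESeq2 called 1, Dbp (adjusted p = 0.0103), where it called 0.809% of all genes, and limma-voom called 0. The median over the list was 0.198. Like the members, the list was chosen with earlier results of these data known, so these counts describe it and are no evidence about it.

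**Figure D5:**
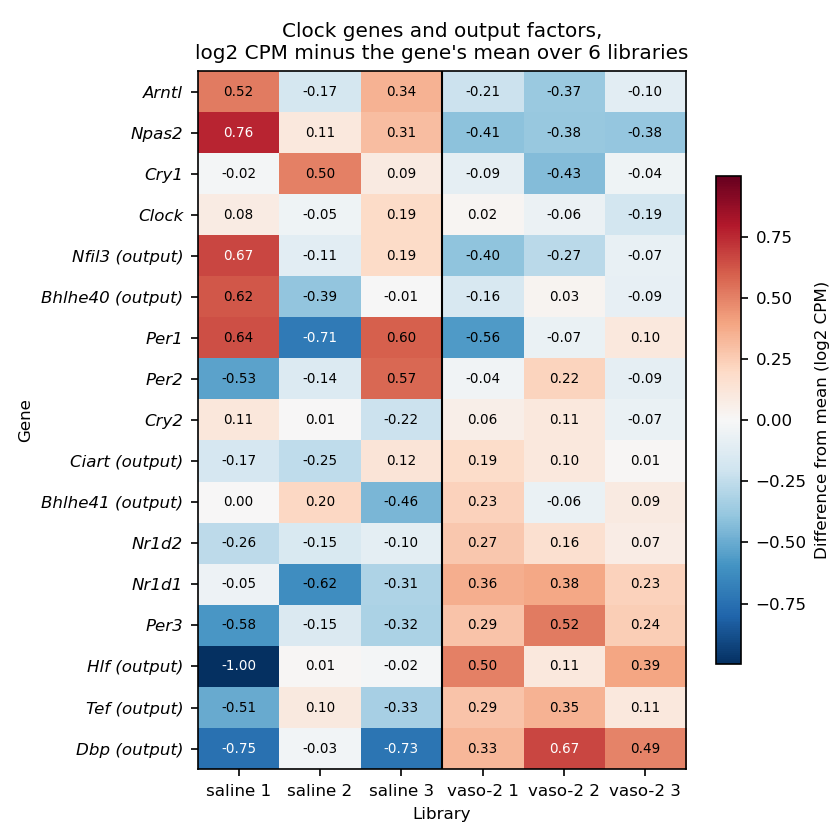
Core clock genes and output factors (rows) in each library (columns), as log2 CPM minus the mean of the gene over the 6 libraries; red is above and blue below that mean. Dbp, Per3 and Nr1d1 are above their mean in all 3 vasostatin-2 libraries and Npas2 and Arntl below, while in saline replicate 2 Arntl (−0.17) is below its mean too.

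Genes that act on the loop from outside were nearly level. Of 33 such regulators, all tested, edgeR called 0 (the lowest adjusted p was 0.791), 0 had an unadjusted p under 0.05, and DESeq2 and limma-voom called 0; 11 had positive and 22 negative values between −0.18 and 0.35, with a median of −0.049. Usp7, a deubiquitinase, Fbxw7, a ubiquitin ligase subunit, and Timeless had the smallest unadjusted p, with log2 fold changes of −0.09, −0.18 and −0.14. Groups were apart in 2 of the 33, both lower, a share close to the 6.72% of all genes tested that were apart and lower. Rora, an activator at the RORE sites where NR1D1 represses, named here for that role and after its values were seen, was at 15.8 ± 0.889 against 15.5 ± 1.75 CPM (SD, n = 3). The median range over the 6 libraries was 0.25 on the log2 scale for the regulators, against 0.97 for the core members. It was 1.01 for the output factors and 1.16 for the glucocorticoid-responsive genes described next, so a wide range was not particular to the core. A range over both groups also includes the group difference known when the members were chosen.

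Genes that respond to glucocorticoid, a signal that also acts on Per1, had overlapping groups and no call. Of 11 such genes edgeR called 0 (the lowest adjusted p was 0.684), 1 had an unadjusted p under 0.05 (7.14% of all genes tested did), DESeq2 and limma-voom called 0, and the groups overlapped in all 11, where 12.8% of all genes had groups apart. The median log2 fold change was −0.232, with 3 positive and 8 negative values, against 7253 positive and 7304 negative over all genes tested. Fkbp5, a cochaperone of the glucocorticoid receptor, was at 58.4, 94.4 and 76.7 CPM with saline and at 63.4, 50.9 and 52.5 CPM with vasostatin-2 (log2 fold change −0.46, SE 0.18; −0.28 without saline replicate 2). Zbtb16 had a log2 fold change of −1.14 (SE 0.51), which was −0.61 without saline replicate 3, and Klf9 one of −0.29 (SE 0.16), which was −0.06 without the same library.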

How the data were processed

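Poly(A)-selected RNA of 6 whole arteries was sequenced on a BGISEQ instrument, per the labels' protocols. HISAT2 2.1.0 and DESeq2 1.26.0, with the build GRCm38.p6, are named in the submitters' processing notes; for the read counter the sources used here give no name. The authors deposited estimated counts per gene (65.6% exactly whole), TPM and FPKM values per library, and the log2 fold change, p-value and q-value of each gene in their own comparison, which are named as theirs where printed. Estimated counts were rounded, filtered with filterByExpr (14557 genes left) and scaled by TMM (factors 0.985 to 1.01). The quasi-likelihood test of edgeR 4.0.16 (R 4.3.3) was fitted with robust dispersions and treatment as the only term, and adjusted by Benjamini-Hochberg over all genes. DESeq2 1.42.0 and limma-voom (limma 3.58.1) used the same genes. CPM values use scaled library sizes, and log2 CPM values a prior count of 2. Standard errors (SE) were derived as the size of edgeR's log2 fold change divided by the square root of the test's F statistic.

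The members, the other lists and the alternatives were chosen with earlier results of these data known. Named genes were the members, Thra, the 7 output factors, the 3 regulators and 3 glucocorticoid-responsive genes with the smallest unadjusted p (none was called), and the 3 genes nearest in profile to Nr1d1 and to Arntl; outside this rule, Rora was named after its values were seen and Uts2 because Per3 covers it. Every pair of libraries within a group differed beyond counting error, so none was the same library sequenced again. That they are separate biological samples is taken from the submitters' description. The p-values weigh a group difference against the spread between these samples, with information on spread shared among genes. Counting floors cover counting error only. Same-numbered libraries did not deviate together (correlations of −0.119, 0.0251 and 0.0273), so replicate numbers were not taken as pairs. Promoter motifs were exact letter matches found in Python 3.11.15.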

Additional observations from a re-analysis of the deposited data

How the results depend on the processing

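Over the 14 other settings tried (other scalings, filters and tests, a replicate block, each library left out, and both replicates 3 left out), Arntl, Clock, Npas2, Per1 and Cry1 had a negative log2 fold change in all 14 and Per3, Nr1d1 and Nr1d2 a positive one in all 14. Cry2 was negative in 1 and Per2 in 8 of the 14. Without both replicates 3 the values of Clock (−0.04) and Per2 (0.42) moved by more than the spread between replicates. The count of genes called, 0 with edgeR, was 113 with DESeq2, which also called 1 output factor, and lay between 0 and 2 when each library was left out; the 2 came without saline replicate 2. The cause of these differences was not tested. With a replicate block edgeR called 0 genes and the members' median log2 fold change was −0.045, against −0.078 without it. Leaving out each library gave medians from −0.186 to −0.021. The Arntl to Nr1d1 difference was −1.06 with a pseudocount of 1. The same 3 genes were nearest to Nr1d1, and the same 3 to Arntl, with the other size factors. In the whole 300-base window 4 members in place of 3 held the RORE core. With 3 libraries a group, the standard errors of the members' log2 fold changes were between 0.08 (Nr1d2) and 0.36 (Per1).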
